A study of Mus musculus with 6 samples.

Results

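The hepcidin genes and the genes through which liver cells sense, store, bind and export iron were followed in mouse liver after knockdown of the long non-coding RNA Hnf1aos1. The 10 iron genes were chosen by symbol, namely Hamp, Hamp2, Hfe, Tfr2, Tfrc, Trf, Slc40a1, Fth1, Ftl1 and Id1, and all 10 were found among the 40803 genes of the count table. The rAAV8-Scramble group received an adeno-associated virus of serotype 8 carrying a scrambled short hairpin RNA, and the rAAV8-Hnf1aos1 group, called knockdown here, received the same kind of virus with a hairpin against Hnf1aos1. Each group had 3 bulk liver libraries labelled as biological replicates 1 to 3. All animals were male C57BL/6J mice of about 6 weeks at tail vein injection, were fed freely, and were sampled 4 weeks later. The hairpin was driven by the U6 promoter, which is active in any transduced cell, and the vector also carried a CAG-driven EGFP reporter, so every animal of both groups carried virus and reporter. No uninjected liver was among the libraries.

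Hepcidin, the peptide hormone encoded by Hamp, is made by hepatocytes and binds ferroportin, the iron exporter encoded by Slc40a1, which is then degraded, so that less iron leaves macrophages, gut cells and hepatocytes. Hepcidin transcription rises with iron through bone morphogenetic proteins (BMPs) and SMAD factors, with Hfe and transferrin receptor 2 (Tfr2) as iron sensors, and rises in inflammation through interleukin 6 and STAT3. Ferritin, the transferrin receptor and ferroportin are also set after transcription, since iron regulatory proteins bind a stem-loop in their mRNAs, the iron-responsive element, when iron is scarce. Read counts show only the amount of these mRNAs, and neither the hormone nor the protein of any member was measured in these libraries.

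Both hepcidin genes lie on chromosome 7 on the minus strand, Hamp at chr7:30942368-30944032 and Hamp2 at chr7:30922372-30924681 in the GENCODE M21 annotation of GRCm38, with 17686 bases between them. Mature hepcidin is the last 25 codons of each coding sequence. These 75 bases are shown because they are where the coding sequences of the hepcidin pair differ most; they are read from the GENCODE transcripts, 5′ to 3′, and capitals mark the 14 positions at which the genes differ.
Hamp, chr7:30942480-30942554, minus strand: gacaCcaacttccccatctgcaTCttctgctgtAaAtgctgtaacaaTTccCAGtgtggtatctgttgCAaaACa
Hamp2, chr7:30922511-30922585, minus strand: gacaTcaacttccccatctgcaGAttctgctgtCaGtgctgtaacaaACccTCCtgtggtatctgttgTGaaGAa
The identity was 81.3% over these bases, and the whole coding sequences of 249 bases differed at 16 positions, so 14 of the 16 differences fall in the hormone itself. Reads from the shared stretches cannot be placed with certainty, and only uniquely mapped reads were counted, so the split of counts between Hamp and Hamp2 is uncertain to that degree. The annotated long non-coding RNA Gm44662 also crosses both genes on the other strand.

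The Hamp promoter is shown because the BMP and the interleukin 6 routes act on it, with the same stretch of Hamp2 for comparison. The stretches below, from RefSeq on GRCm38.p6, run from 150 to 11 bases before the annotated start. The Hamp2 stretch lies inside the GENCODE gene span of Hamp2 given above. Capitals mark the letters GGCGCC, the core of a BMP-responsive element, and TTCNNNGAA, the general form of a STAT site; both motifs read the same on both strands and they do not overlap.
Hamp, chr7:30944040-30944179, minus strand: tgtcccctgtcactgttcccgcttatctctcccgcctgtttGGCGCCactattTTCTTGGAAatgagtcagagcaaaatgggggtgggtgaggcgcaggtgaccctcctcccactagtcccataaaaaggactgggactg
Hamp2, chr7:30924192-30924331, minus strand: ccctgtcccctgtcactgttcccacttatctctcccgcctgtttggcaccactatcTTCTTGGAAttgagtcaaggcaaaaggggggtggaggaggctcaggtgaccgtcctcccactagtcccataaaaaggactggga
In Hamp, GGCGCC began 109 bases and the STAT-type letters 97 bases before the start, 6 bases apart. In Hamp2, the same STAT-type letters began 94 bases before the start, and GGCGCC was not in its window of 300 bases. Over the 32851 RefSeq promoter windows of this length, GGCGCC occurred in 11.9% and TTCNNNGAA in 8.30%. Of the 7 iron genes with a window in the table, Hamp and Tfrc held the first and Hamp and Hamp2 the second. A match of letters describes the window and does not show that a factor binds there.

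The iron-responsive elements are shown because iron regulatory proteins act through them. A match of letters and pairing does not show that a protein binds there. A gene without a match is not shown to lack control after transcription. The search asked for a C, any 5 bases, the loop CAGTG, 1 more base, and 5 bases that can all pair with the first 5, with G-T pairs allowed, on the transcript strand. Each window of 30 bases carries the loop in capitals, in GRCm38.
Fth1, 5′ untranslated region, chr19:9982732-9982761, plus strand: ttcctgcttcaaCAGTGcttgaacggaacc
Ftl1, 5′ untranslated region, chr7:45459778-45459807, minus strand: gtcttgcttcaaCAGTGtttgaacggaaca
Slc40a1, 5′ untranslated region, chr1:45925464-45925493, minus strand: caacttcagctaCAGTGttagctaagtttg
Tfrc, 3′ untranslated region, chr16:32631219-32631248, plus strand: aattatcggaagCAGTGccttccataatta
Tfrc, 3′ untranslated region, chr16:32631598-32631627, plus strand: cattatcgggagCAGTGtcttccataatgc
Tfrc, 3′ untranslated region, chr16:32631663-32631692, plus strand: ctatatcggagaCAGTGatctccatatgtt
Tfrc, 3′ untranslated region, chr16:32631710-32631739, plus strand: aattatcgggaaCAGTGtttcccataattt
The element was found in the 5′ untranslated region of 3 iron genes and 4 times in the 3′ untranslated region of Tfrc. Among genes with an annotated 5′ untranslated region, 31 of 20916 (0.148%) held it there. Among genes with an annotated 3′ untranslated region, 129 of 21042 (0.613%) held it there. The remaining iron genes lie at chr13:23702034-23710854 (Hfe), chr5:137569840-137587481 (Tfr2), chr9:103204001-103230444 (Trf) and chr2:152736251-152737410 (Id1), Fth1 at chr19:9980598-9985098, Ftl1 at chr7:45457944-45459884, Tfrc at chr16:32608920-32632794 and Slc40a1 at chr1:45908068-45926523.

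The libraries held 14704746 to 19462398 gene counts, with 1.18 to 1.52% of counts on added spike-in RNA. Values below are normalized read counts, that is, deposited counts after division by the library's effective size (total times TMM factor, with a mean of 1 over libraries), and they are given as scramble replicates 1, 2 and 3 and then knockdown replicates 1, 2 and 3. Fold changes, standard errors (SE), 95% intervals and adjusted p-values are from edgeR's quasi-likelihood test over the 16327 genes with enough counts, with Benjamini-Hochberg adjustment, and a gene is called where the adjusted p is under 0.05. Hnf1aos1 itself stood at 512, 491 and 620 in scramble livers and 278, 258 and 433 in knockdown livers. The groups did not overlap and the log2 fold change was -0.74 (SE 0.195, adjusted p = 0.0625 by edgeR), with knockdown replicate 3 nearest to the scramble libraries. Of the 8 hepatocyte markers, all were tested and abundant, and 2 were called, Tat lower and Ahsg higher, beside 6.32% of all tested genes. An unadjusted p under 0.05 was found for 3, beside 23.4%, and 4 had groups that did not overlap, beside 28.9%. Above 0 were 7 of the 8 log2 fold changes. Stellate cell, cholangiocyte, and T and B cell markers gave 0 called of 8, 4 and 7 tested by edgeR and 0 by DESeq2 and limma voom. At an unadjusted p under 0.05 there were 1, 0 and 1. The same edgeR shares of 6.32% and 23.4% of all tested genes stand beside these counts. In bulk liver, fewer cells of a type and less RNA per cell cannot be told apart.

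None of the 10 iron genes was called. By edgeR 0 of 10 passed, where 6.32% of all tested genes were called, 3.09% higher and 3.23% lower in the knockdown, and DESeq2 (6.96% of genes called) and limma voom (5.52% of genes called) also called 0 of 10. At an unadjusted p under 0.05 there were 2 of 10, Hamp2 and Trf, against 23.4% of all tested genes. The same 2 were the iron genes whose groups did not overlap, against 28.9% of all tested genes. Above 0 were 6 log2 fold changes and 4 below, with a median of 0.080 beside -0.00040 over all tested genes. All 10 passed the filter on low counts.

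**Figure D1:**
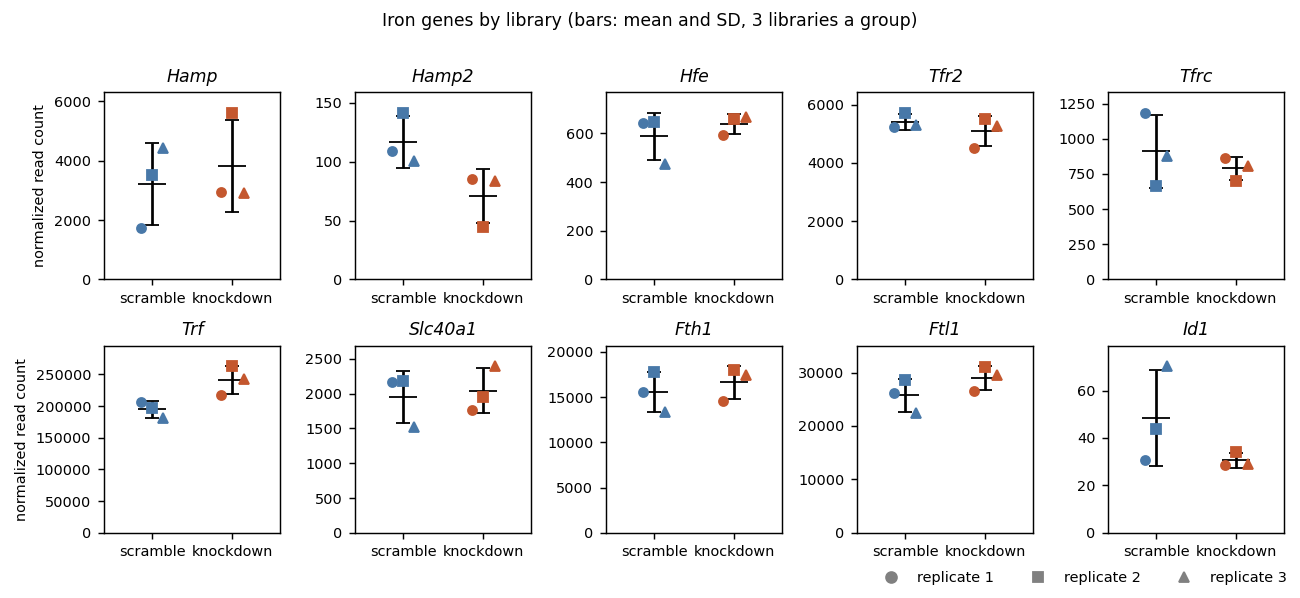
Normalized read counts of the 10 iron genes in each library, scramble in blue and knockdown in orange, with a marker shape for each replicate number, on linear axes from 0. Bars give the mean and SD of 3 libraries. The groups are apart in Hamp2 and Trf and overlap in the other 8, and Hamp spans 1723 to 4439 among the scramble livers alone.

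Hamp, the main hepcidin gene, was at 1723, 3503 and 4439 in scramble livers and 2931, 5621 and 2903 in knockdown livers. The highest and the second highest libraries belonged to different groups, and 2 of the knockdown livers lay within the scramble range. The means were 3221 ± 1380 (SD, n = 3) and 3818 ± 1561 (SD, n = 3), a log2 fold change of 0.25 (SE 0.475, adjusted p = 0.809 by edgeR). The 95% interval runs from -1.01 to 1.50, or from 0.497-fold to 2.83-fold, so these libraries leave room for a fall to about the lower bound or a rise to the upper one. Hamp was among the more variable genes within groups. Its pooled within-group SD of 0.633 on the log2 scale was larger than that of 95.4% of tested genes, and the highest scramble liver had 2.58 times the lowest. The sign of the fitted change turned when scramble replicate 1 was left out (-0.054) and when knockdown replicate 2 was left out (-0.14).

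Hamp2, the second mouse hepcidin gene, was at 109, 142 and 100 in scramble livers and 84.9, 44.7 and 83.3 in knockdown livers. All 3 knockdown livers were below all 3 scramble livers. The means were 117 ± 21.9 (SD, n = 3) and 71.0 ± 22.8 (SD, n = 3), and the fold was 0.609 (95% interval 0.418 to 0.886, not adjusted for the number of genes), with a log2 fold change of -0.72 (SE 0.247, adjusted p = 0.108 by edgeR). It was not called, and it passed in 1 of 14 alternative fits, in which no gene was filtered for low counts (adjusted p = 0.0135), where 6.92% of genes were called. Hamp2 rests on 47 to 129 raw counts a library, against 1679 to 5915 for Hamp.

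Of 100 counts on the hepcidin pair, 5.94, 3.89 and 2.20 were on Hamp2 in scramble livers and 2.81, 0.788 and 2.79 in knockdown livers. The scramble mean was 4.01 ± 1.87 (SD, n = 3) and the knockdown mean 2.13 ± 1.16 (SD, n = 3), a difference of -1.88 (two-sided exact permutation p = 0.3, where 0.1 is the smallest that 3 against 3 can give). Without scramble replicate 1 the difference was -0.914, and without knockdown replicate 2 it was -1.21. The groups overlapped, as 2.20 in scramble replicate 3 lay below 2 of the knockdown values.

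Hfe, the sensor whose loss causes hereditary iron overload, was at 642, 645 and 474 in scramble livers and 592, 658 and 667 in knockdown livers. Its log2 fold change was 0.12 (95% interval -0.15 to 0.39, adjusted p = 0.589 by edgeR). Tfr2, the hepatocyte sensor of transferrin-bound iron, was at 5219, 5731 and 5300 and then 4512, 5495 and 5254. Its log2 fold change was -0.091 (95% interval -0.32 to 0.13, adjusted p = 0.637 by edgeR). For both sensors the groups overlapped, and the 95% intervals together run from 0.804-fold to 1.31-fold.

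Tfrc, the receptor that takes up transferrin-bound iron in most cells, was at 1187, 666 and 879 in scramble livers and 863, 700 and 809 in knockdown livers. The knockdown values all lay inside the scramble range, and the log2 fold change was -0.20 (95% interval -0.67 to 0.26, adjusted p = 0.580 by edgeR). Red cell precursors carry much of this receptor, and the 8 erythroid markers summed to 1259 to 1399 in scramble livers and 1232 to 1744 in knockdown livers. Of the 5 tested, 0 were called by edgeR, DESeq2 or limma voom, beside 6.32% of all tested genes by edgeR. At an unadjusted p under 0.05 there were 0, beside 23.4% of all tested genes.

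Trf, which encodes the plasma iron carrier transferrin, was the most abundant iron gene, at 207013, 196749 and 180742 in scramble livers and 217839, 262476 and 242703 in knockdown livers. All 3 knockdown livers were above all 3 scramble livers. The fold was 1.24 (95% interval 1.03 to 1.49, not adjusted for the number of genes) and the log2 fold change 0.31 (SE 0.123, adjusted p = 0.158 by edgeR). Trf passed in 1 of 14 alternative fits, the one scaled to the spike-in RNA (log2 fold change 0.51, adjusted p = 0.0232). That scaling raised the median change of all genes to 0.20 and called 20.8% of them, so relative to that median the value is near that of the main scaling. The annotation holds a protein-coding gene, Gm20425, that overlaps Trf on the same strand.

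Slc40a1, the ferroportin gene, was at 2160, 2179 and 1525 in scramble livers and 1767, 1956 and 2398 in knockdown livers. The groups overlapped, and the log2 fold change was 0.062 (95% interval -0.29 to 0.42, adjusted p = 0.854 by edgeR). The sign turned without scramble replicate 3 (-0.095), without knockdown replicate 3 (-0.068) and with plain library totals (-0.0060). Kupffer cells, the liver macrophages, also express ferroportin. Of 11 Kupffer cell and macrophage markers, 4 were called, all higher (Clec4f, Adgre1, C1qa and C1qb), beside 6.32% of all tested genes. An unadjusted p under 0.05 was found for 10 of 11, beside 23.4% of all tested genes. The groups did not overlap for 10, beside 28.9%. All 11 log2 fold changes were above 0, with a median of 0.45. The number called was 5 by DESeq2 and 3 by limma voom, neither with Adgre1. It ran from 1 with library totals (C1qa, where 6.42% of genes were called) to 11 with spike-in library sizes (where 20.8% were called). The summed level was 3852 to 4576 in scramble livers and 4862 to 6296 in knockdown livers, with no marker at 0. Their part in the ferroportin level was not tested.

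Fth1, the ferritin heavy chain that oxidizes iron for storage, was at 15540, 17805 and 13310 in scramble livers and 14590, 17953 and 17394 in knockdown livers, a log2 fold change of 0.098 (95% interval -0.19 to 0.38, adjusted p = 0.695 by edgeR). Ftl1, the light chain that helps form the iron core, was at 26176, 28642 and 22459 and then 26610, 30972 and 29500, a log2 fold change of 0.17 (95% interval -0.090 to 0.43, adjusted p = 0.414 by edgeR). For both chains the lowest library was scramble replicate 3 and the groups overlapped. Processed ferritin pseudogenes resemble both mRNAs closely, so reads that could not be placed uniquely are lost from both.

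The ratio of the ferritin chains was steadier than either chain, whose within-group SDs on the log2 scale were 0.187 (Fth1) and 0.148 (Ftl1). There were 1.68, 1.61 and 1.69 Ftl1 counts for each Fth1 count in scramble livers and 1.82, 1.73 and 1.70 in knockdown livers. On the log2 scale the ratio was 0.731 ± 0.0391 (SD, n = 3) and 0.805 ± 0.0548 (SD, n = 3), a difference of 0.074 (two-sided exact permutation p = 0.1, the smallest that 3 against 3 can give). Without knockdown replicate 1 the difference was 0.043. The groups did not overlap, but the lowest knockdown ratio and the highest scramble ratio were 1.70 and 1.69.

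Id1, a gene that BMP and SMAD signalling induces along with hepcidin, was at 30.8, 43.9 and 70.4 in scramble livers and 28.6, 34.2 and 29.0 in knockdown livers. Scramble replicate 3 stood highest and scramble replicate 1 lay inside the knockdown range. The log2 fold change was -0.65 (SE 0.312, 95% interval -1.34 to 0.030, adjusted p = 0.233 by edgeR), and without scramble replicate 3 it was -0.29. Id1 rests on 30 to 64 raw counts a library and does not enter a fit restricted to genes with a mean of at least 50 counts.

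**Figure D2:**
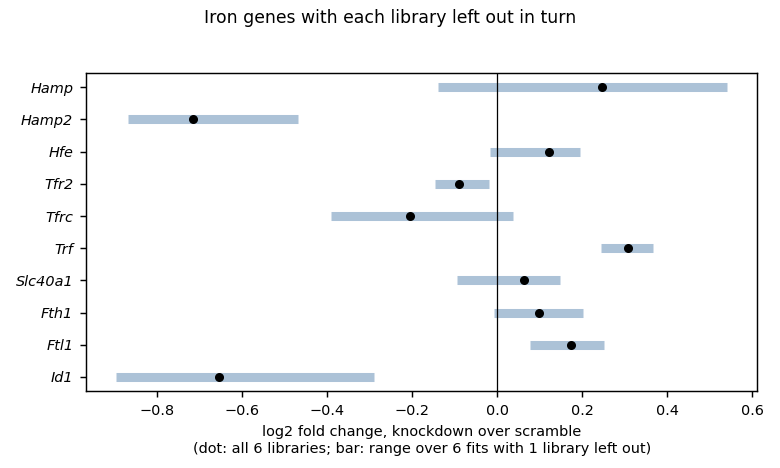
Log2 fold change, knockdown over scramble, of the 10 iron genes with all 6 libraries (black dot) and its range over 6 fits that each leave out 1 library (bar). Hamp2, Tfr2 and Id1 stay below 0 and Trf and Ftl1 above 0 in these fits, whereas the bars of Hamp, Hfe, Tfrc, Slc40a1 and Fth1 cross 0.

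The levels of the iron genes can be ordered per length on the deposited TPM values, which scale each library's reads per transcript length to a fixed sum. Trf led with a scramble mean of 10878 ± 515 TPM (SD, n = 3), above 99.9% of tested genes, followed by Ftl1 at 3453 ± 325 TPM, Fth1 at 1338 ± 159 TPM and Hamp at 1037 ± 464 TPM. The libraries of Fth1 and Hamp overlapped, so those neighbours are not ordered, while Trf, Ftl1 and Fth1 were separate from each other. Below them came Tfr2 at 187 ± 7.91 TPM, Slc40a1 at 72.8 ± 12.0 TPM, Hamp2 at 34.7 ± 5.73 TPM, Tfrc at 23.1 ± 6.61 TPM, Hfe at 21.2 ± 3.01 TPM and Id1 at 5.47 ± 2.44 TPM (SD, n = 3 for each). The libraries of Tfrc and Hfe overlapped. In the knockdown livers the means of the first 6 came in this order, with Fth1 and Hamp again overlapping, and Hfe (22.0 ± 0.722 TPM), Hamp2 (20.2 ± 6.83 TPM) and Tfrc (19.0 ± 2.55 TPM) followed, with Hamp2 and Tfrc each overlapping the gene above it.

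The wider iron system was read from 6 companion lists, 106 genes in all, of which 98 had enough counts to be tested. Of these, 7 were called, 5 higher and 2 lower, beside 6.32% of all tested genes. At an unadjusted p under 0.05 there were 33 of 98, beside 23.4% of all tested genes, and 37 of 98 had groups that did not overlap, beside 28.9%. The median log2 fold change was 0.059. The number called depended on single libraries, and it was 0 without scramble replicate 3, 2 without scramble replicate 2, 4 without scramble replicate 1 and 19 without knockdown replicate 3. The calls over all genes moved the same way, from 1032 to 103, 391, 630 and 1881 in these fits. Without knockdown replicate 1 there were 5 companion calls and 630 over all genes. Without knockdown replicate 2 the companion count was 7, of which 4 were shared with the main fit, while 323 were called over all genes. DESeq2 called 18 and limma voom 13, beside 6.96% and 5.52% of all genes. Both lists held the 7 genes called by edgeR with all 6 libraries.

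**Figure D3:**
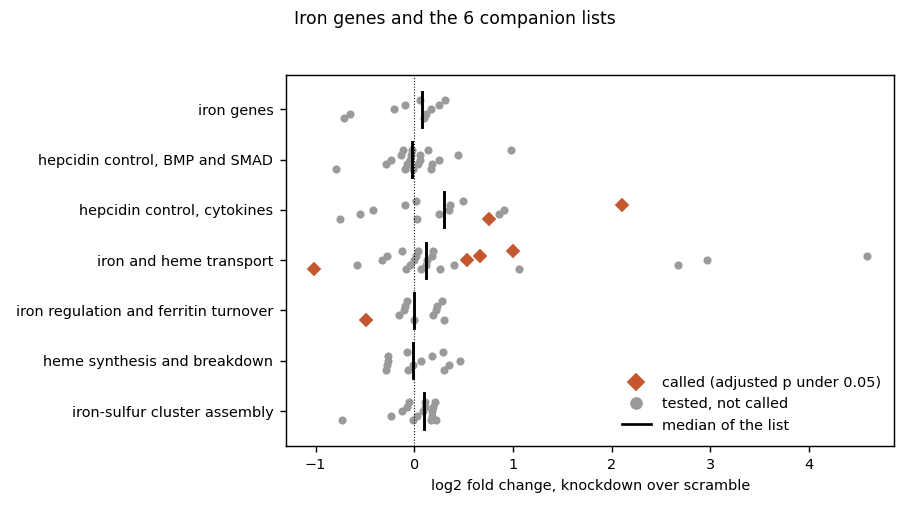
Log2 fold change, knockdown over scramble, of every tested gene of the iron genes and the 6 companion lists, with genes called by edgeR as orange diamonds and the median of each list as a black line. The called genes lie in 3 lists, and the points furthest to the right, in iron and heme transport, are Lcn2, Scara5 and Steap4, which edgeR did not call and DESeq2 did.

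The list for the cytokine side of hepcidin control also held the activin subunit genes Inhba, Inhbb and Inhbe. Of its 14 tested genes, 2 were called by edgeR, both higher, beside 6.32% of all tested genes. The median log2 fold change was 0.30, with 10 of 14 above 0. Below 0, and named after their values were seen, were Il6ra (-0.42, adjusted p = 0.0801 by edgeR) and Inhbb (-0.75, adjusted p = 0.226 by edgeR). Both had groups that did not overlap, and Inhbb rests on 10 to 28 raw counts a library. At an unadjusted p under 0.05 there were 9 of 14, beside 23.4% of all tested genes, and 9 had groups that did not overlap, beside 28.9%. DESeq2 called 6, of which 5 were higher and Inhbe was lower, and limma voom called 3, all higher. Socs3, the inhibitor that STAT3 induces to end interleukin 6 signalling, stood at 57.5, 51.6 and 59.4 in scramble livers and 130, 325 and 272 in knockdown livers. The fold was 4.31 (95% interval 2.49 to 7.46, adjusted p = 0.0169 by edgeR), and the call was lost when any 1 scramble library was left out, with an adjusted p of up to 0.0982. Inhba, which encodes the activin subunit beta A, was at 417, 346 and 338 and then 610, 564 and 681, a fold of 1.69 (95% interval 1.42 to 2.00, adjusted p = 0.00586 by edgeR). It lost its call in 1 fit, without scramble replicate 3 (adjusted p = 0.0605).

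Stat3 itself, chosen after its values were seen, was at 1858, 1791 and 1894 in scramble livers and 3558, 4293 and 2203 in knockdown livers, a log2 fold change of 0.86 (adjusted p = 0.0723 by edgeR), and it was called by DESeq2 and limma voom. Il6 had at most 2 counts in any library and was not tested. Socs3, Stat3 and Hamp were each highest in knockdown replicate 2, at 325, 4293 and 5621. Socs3 was lowest among knockdown livers in replicate 1, Stat3 in replicate 3, and Hamp was at 2931 and 2903 in replicates 1 and 3. A link between these levels was not tested.

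On the BMP and SMAD side, edgeR called 0 of 20 tested genes, beside 6.32% of all tested genes, and the median log2 fold change was -0.019. An unadjusted p under 0.05 was found for 4 of 20, beside 23.4% of all tested genes. The groups did not overlap for 5 of 20, beside 28.9%. DESeq2 called 3 of them (Id2 and Id3 higher, Atoh8 lower) and limma voom 2 (Id3 and Atoh8). Atoh8, a transcription factor that responds to BMP signals and acts on hepcidin, was at 360, 276 and 385 in scramble livers and 163, 261 and 166 in knockdown livers, a log2 fold change of -0.79 (SE 0.201, adjusted p = 0.0501 by edgeR). Id2, another target of this route, was at 1856, 1844 and 1928 and then 2085, 3128 and 2412, with a log2 fold change of 0.44 (SE 0.132, adjusted p = 0.0756 by edgeR). Id3, chosen after its values were seen, had a log2 fold change of 0.98 (adjusted p = 0.0771 by edgeR), so the 3 Id genes of this route lay on both sides of 0. The ligand Bmp6, made by sinusoidal endothelium, was at 104, 133 and 107 and then 84.9, 82.7 and 124. Endothelial markers gave 0 called of 10 by edgeR, DESeq2 and limma voom, beside 6.32% of all tested genes by edgeR. At an unadjusted p under 0.05 there were 0, beside 23.4%, and 1 had groups that did not overlap, beside 28.9%. Only 1 of the 10 log2 fold changes was above 0, with a median of -0.067. The endothelial markers summed to 7037 to 7828 in scramble livers and 6603 to 7622 in knockdown livers.

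In iron and heme transport, 4 of 24 tested genes were called by edgeR, 3 higher and 1 lower, beside 6.32% of all tested genes. DESeq2 called 8, of which 7 were higher, and limma voom 7, of which 6 were higher. Slc39a14, which takes up iron that is not bound to transferrin, was at 3502, 3397 and 3480 in scramble livers and 6256, 6030 and 4178 in knockdown livers, a fold of 1.59 (95% interval 1.28 to 1.96, adjusted p = 0.0231 by edgeR). Cp, the plasma ferroxidase ceruloplasmin, was at 18707, 18641 and 17996 and then 29033, 29572 and 21719, a fold of 1.45 (95% interval 1.20 to 1.76, adjusted p = 0.0336 by edgeR). Hpx, the heme scavenger hemopexin, was at 27804, 27172 and 25370 and then 53746, 71026 and 35842, a fold of 2.00 (95% interval 1.42 to 2.82, adjusted p = 0.0361 by edgeR). In all 3 the scramble livers were close together and knockdown replicate 3 was the knockdown liver nearest to them. Each lost its call in 5 of the 6 fits that leave out a library, and kept it without knockdown replicate 3. Hpx was also not called with plain library totals or without the filter on low counts.

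Steap2, a ferric and cupric reductase, was the transport gene called lower, at 123, 147 and 137 in scramble livers and 68.7, 52.3 and 79.7 in knockdown livers. The fold was 0.493 (95% interval 0.371 to 0.656, adjusted p = 0.0122 by edgeR), and the call was lost without scramble replicate 2 or 3 (adjusted p of up to 0.0831). Steap4, Scara5, Lcn2 and Hp had the highest log2 fold changes of the list, which is why they are named here. By edgeR none of these 4 was called, whereas DESeq2 called all 4 and limma voom called Steap4, Scara5 and Hp. Steap4, another ferric reductase, was at 1606, 1701 and 1637 and then 10356, 17992 and 3248, a log2 fold change of 2.68 (SE 0.691, adjusted p = 0.112 by edgeR). Scara5, a receptor for ferritin, was at 34.9, 80.1 and 66.0 and then 616, 627 and 172, a log2 fold change of 2.97 (SE 0.677, adjusted p = 0.0838 by edgeR).

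Lcn2, which binds bacterial iron carriers, was at 15.4, 31.8 and 58.3 in scramble livers and 433, 2035 and 53.4 in knockdown livers. Knockdown replicate 3 lay within the scramble range, and the log2 fold change was 4.59 (SE 1.68, adjusted p = 0.212 by edgeR). Neutrophils also make Lcn2, and the 8 neutrophil markers, none of which had enough counts to be tested, summed to 4.10 to 6.60 in scramble livers and 12.7 to 35.2 in knockdown livers, with Ly6g and Mpo at 0 in every library. Their part in the Lcn2 level was not tested. Hp, which encodes haptoglobin, the scavenger of free hemoglobin, was at 14444, 14717 and 14434 and then 27510, 43502 and 19818, a log2 fold change of 1.06 (SE 0.265, adjusted p = 0.0656 by edgeR).

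**Figure D4:**
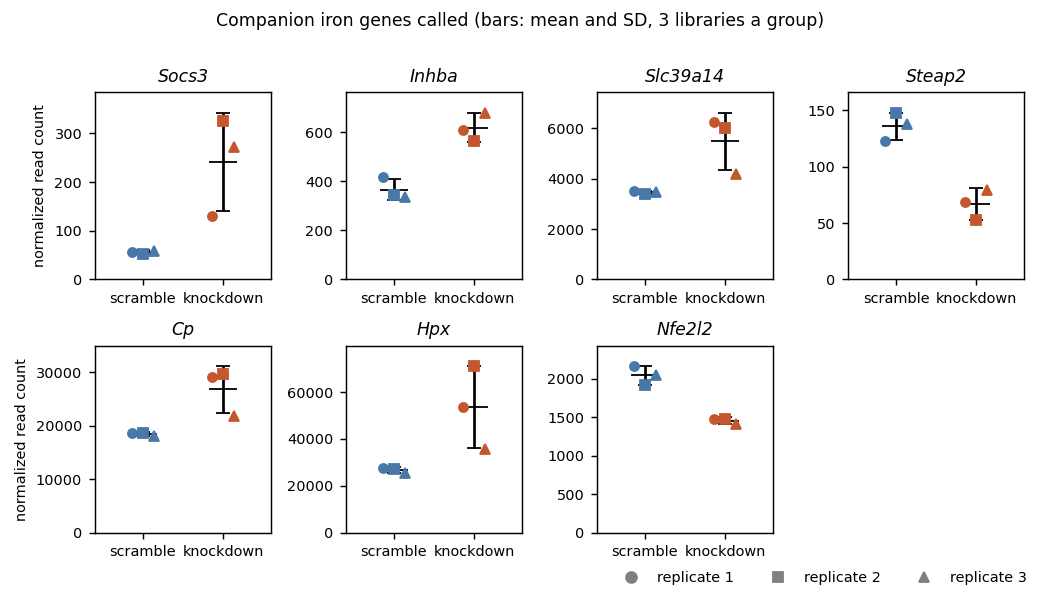
Normalized read counts of the 7 called companion genes in each library, scramble in blue and knockdown in orange, with a marker shape for each replicate number and bars for the mean and SD of 3 libraries. The groups do not overlap in any of the 7, and for Slc39a14, Cp and Hpx knockdown replicate 3 is the lowest knockdown liver.

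Of the genes of iron regulation and ferritin turnover, 1 of 11 tested was called by edgeR, beside 6.32% of all tested genes. An unadjusted p under 0.05 was found for 5 of 11, beside 23.4%, and 6 had groups that did not overlap, beside 28.9%. Nfe2l2, the oxidative stress factor NRF2 that induces ferritin genes, was at 2170, 1921 and 2047 in scramble livers and 1477, 1486 and 1408 in knockdown livers, a fold of 0.712 (95% interval 0.625 to 0.812, adjusted p = 0.0107 by edgeR). It lost its call without scramble replicate 3 (adjusted p = 0.0736). Ncoa4, the receptor that carries ferritin to lysosomes, was at 1548, 1419 and 1402 and then 1908, 1775 and 1640, with a log2 fold change of 0.28 (adjusted p = 0.0878 by edgeR). The iron regulatory protein genes Aco1 and Ireb2 had log2 fold changes of -0.11 (adjusted p = 0.565) and 0.30 (adjusted p = 0.101 by edgeR).

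Heme synthesis and breakdown gave 0 called of 13 tested and iron-sulfur cluster assembly 0 of 16, by edgeR, DESeq2 and limma voom. The edgeR share over all tested genes was 6.32%. At an unadjusted p under 0.05 there were 4 of 13 and 1 of 16, beside 23.4% of all tested genes. Alad, an early enzyme of heme synthesis, had a log2 fold change of -0.27 (adjusted p = 0.0860 by edgeR) and Hmox2, the constitutive heme oxygenase, one of 0.35 (adjusted p = 0.118 by edgeR). The assembly genes with the lowest p were Isca1, with a log2 fold change of 0.22 (adjusted p = 0.203 by edgeR), and Fdx2, with one of -0.73 (adjusted p = 0.242 by edgeR) on 9 to 23 raw counts a library.

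**Figure D5:**
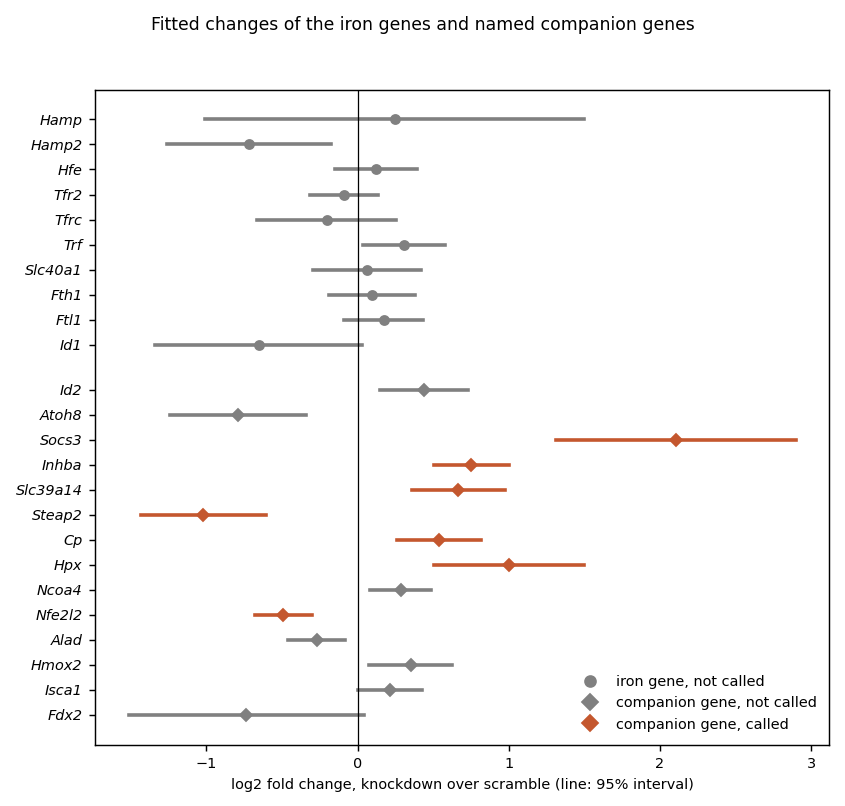
Log2 fold change, knockdown over scramble, with its 95% interval for the 10 iron genes (circles) and the 14 companion genes named by rule (diamonds), called genes in orange. The interval of Hamp is the widest of the iron genes, from -1.01 to 1.50, and those of Hamp2 and Trf leave out 0 although neither was called after adjustment.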

How the data were processed

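Total RNA of 6 flash-frozen livers was sequenced as 150 bp paired-end reads. The methods name poly(A) selection with a stranded kit, whereas the labels describe ribosomal RNA depletion. The authors trimmed reads, aligned them with STAR and assigned uniquely placed reads to exons with featureCounts, and the deposited raw counts per gene were used as they stand. The strand setting was not given in the sources used here. The methods give GRCm38 and the labels GRCm39, and since the tables hold no coordinates, all positions here are from the GRCm38 reference. TPM values deposited by the authors, scaled with spike-ins included, served to order levels between genes and as an alternative for the ratios. Their DESeq2-normalized counts and their comparison table, which holds fold changes and p-values, were not used.

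Genes were filtered with filterByExpr, scaled by TMM and fitted with edgeR 4.0.16 (quasi-likelihood, robust) in R 4.3.3, without a replicate block. The 92 spike-in rows were left out of tests. DESeq2 1.42.0, limma 3.58.1 voom, other scalings and filters, a replicate block and leaving out each library were the alternatives. Scripts were tested on simulated data. By the methods each library came from a different mouse.

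The members and lists were chosen with earlier results of these data known. Named genes are the 10 members, each companion list's called genes, or its 2 lowest p-values where fewer than 2 were called, genes whose pattern is most like or unlike that of Hamp, and Hnf1aos1. Il6, Bmp6, Aco1 and Ireb2 were added for their roles after values were seen, and others are marked in the text.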

Additional observations from a re-analysis of the deposited data

How the results depend on the processing

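Across 14 alternatives, the count of iron genes called was 1 with spike-in library sizes (Trf) and 1 without a filter on low counts (Hamp2), and 0 in the others, including each of the 6 fits without a library (range 0 to 0). The companion count of 7 became 18 with DESeq2, 13 with limma voom, 34 with spike-in library sizes and 14 without a filter, 8 with DESeq2 size factors in edgeR, 10 with library totals, and ranged from 0 to 19 when a library was left out. Sign changes were Slc40a1 with library totals (-0.0060), and Tfr2 (0.11) and Tfrc (0.0050) with spike-in library sizes. Without scramble replicate 1, Hamp was -0.054 and Tfrc 0.037. Without scramble replicate 3, Hfe was -0.017, Slc40a1 -0.095 and Fth1 -0.0089. Without knockdown replicate 2, Hamp was -0.14, and without knockdown replicate 3, Slc40a1 was -0.068. When a library was left out, the log2 fold change ranged from -0.14 to 0.54 for Hamp, -0.017 to 0.19 for Hfe, -0.39 to 0.037 for Tfrc, -0.095 to 0.15 for Slc40a1 and -0.0089 to 0.20 for Fth1. The cause of these changes was not tested. The ratios kept their direction throughout: without a library, the Hamp2 share differed by -2.78 to -0.914 and the log2 ferritin ratio by 0.043 to 0.096, and with TPM by -1.76 and 0.074. Same-numbered libraries did not deviate together (correlations -0.023, 0.023 and 0.0032). With the replicate block, 0 iron genes and 7 companion genes were called, 6 of them shared with the fit without it, with Cp not called (adjusted p = 0.0521). Depth limits Hamp2 and Id1 most, at 30 to 129 counts a library.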

Other observations

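Of 12810 tested genes with an average of at least 1 log2 CPM, 52 had a Pearson correlation above 0.9 with Hamp over the 6 libraries and 37 one below -0.9. The 5 highest were E4f1 (0.98), Numb (0.98), Naaa (0.97), Fhip2b (0.97) and Anapc7 (0.97), and the 3 lowest were Ppp2r2a (-0.99), Ttll8 (-0.96) and Ccdc50 (-0.96). These are descriptions over 6 libraries of 2 groups that share their depth and scaling. How many of the 12810 genes would pass these bounds by chance was not computed, and shared control with Hamp was not tested. Among the other iron genes the correlation with Hamp was -0.77 for Tfrc, -0.53 for Hamp2, -0.44 for Slc40a1, -0.28 for Hfe, 0.13 for Fth1, 0.14 for Ftl1, 0.20 for Trf, 0.33 for Tfr2 and 0.48 for Id1.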
